A study of Mus musculus with 6 samples.

Results

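The transcripts described here encode 8 cathepsins and 2 cystatins: Ctsb, Ctsh, Ctsl, Ctss, Ctsz, Ctsc, Ctsd and Ctsa, and the inhibitors Cst3 and Cst7. They were taken by gene symbol from a fixed list, 10 of 49585 genes in the count files, and all 10 were among the 11041 genes with enough counts to be tested. The counts come from microglia, the resident macrophages of the brain, in 6 libraries, of which 3 are of wild-type animals (WT) and 3 carry the label IRF8KO, a knockout of the gene for interferon regulatory factor 8. All mice were male and 3 months old, and the labels name no treatment; cells of each brain were freed with no enzyme digestion, then sorted by FACS into TRIzol. The labels give neither the allele, nor the strain, nor the markers used in the sort, so whether the deletion reaches other cells of the brain cannot be read from them.

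Cathepsins are proteases of the endosome and lysosome. Most are cysteine proteases of the papain family, Ctsd is an aspartic protease and Ctsa a serine carboxypeptidase, and they are made as inactive precursors that are delivered to the lysosome and cleaved there. Cystatins are small proteins that block the active site of papain-like cathepsins. Cystatin C, the product of Cst3, is secreted and found throughout the brain, whereas cystatin F, the product of Cst7, can enter endosomes and lysosomes and is known as an inhibitor of cathepsin C; its transcript is a familiar marker of microglia around amyloid plaques.

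The libraries held 3658917 to 11098363 counts on genes, with WT replicate 1 the shallowest. The library labels could not be checked against the targeted gene: Irf8 had 795, 851 and 1403 CPM (counts relative to library size after TMM scaling, edgeR's trimmed-mean normalization) in WT and 743, 650 and 850 in IRF8KO. These groups overlapped, and whole-gene counts cannot show the loss of part of a transcript, so IRF8KO stands for the libraries labelled so. Of 12 microglial markers, 5 fell, 1 rose and 6 were not called, and Sall1 had 0 counts in all 3 IRF8KO libraries. All 8 tested markers of border-associated macrophages rose, whereas 2 defining ones, Lyve1 and Cd209f, had 0 counts in all 6 libraries. The summed level was 610 to 835 CPM in WT and 3810 to 4989 CPM in IRF8KO. In WT it was nearly all Stab1, which rose from 692 ± 116 to 1950 ± 310 CPM (SD, n = 3). The next highest in WT, Mrc1, rose from 3.12 ± 0.543 to 39.3 ± 19.0 CPM, and Pf4 from 1.79 ± 0.935 to 1881 ± 321 CPM. Markers such as Cd163 and F13a1, with 0 counts in all WT libraries, were tested only through IRF8KO, so their direction was fixed by the expression filter. Neutrophil markers summed to 326 CPM in IRF8KO replicate 2 and to at most 1.12 CPM in any other library. Of 8 lymphocyte markers 1 was tested, Cd79b, which fell from 76.0 ± 22.5 to 17.2 ± 2.66 CPM (SD, n = 3) and made up nearly the whole sum of 61.2 to 102 CPM in WT and 16.2 to 20.4 CPM in IRF8KO; Cd3e and Ms4a1 were among those at 0 in all libraries. Transcripts of the handling response, such as Fos and Egr1, summed to 5182, 9947 and 710 CPM in WT replicates 1, 2 and 3. In IRF8KO they summed to 666 to 879 CPM, so WT replicate 3 lay near the IRF8KO libraries in this measure. Of the 8 listed, 7 were called lower in IRF8KO and 1 was not called, where 9.46% of all tested genes were called as lower. Oligodendrocyte markers summed to 46.2 to 282 CPM in WT and 379 to 551 CPM in IRF8KO, nearly all of it Mbp, and none of the 3 tested was called. Of 4 tested astrocyte markers, Gfap rose from 3.02 ± 2.55 to 15.7 ± 7.77 CPM and Aldh1l1 rose too (log2 fold change 1.89), whereas Slc1a3, the most abundant of them in WT, fell from 152 ± 58.5 to 8.76 ± 6.54 CPM (SD, n = 3). Aldoc, at 33.8 ± 39.1 CPM in WT and 106 ± 32.8 CPM in IRF8KO, did not pass. Neuron markers summed to 0.283 to 7.44 CPM in WT and 17.7 to 22.7 CPM in IRF8KO. The 2 tested, Rbfox3 and Syt1, were called higher, at 0.986 ± 1.30 and 0.322 ± 0.557 CPM in WT (SD, n = 3). Both passed the expression filter through IRF8KO, so their direction was largely set by that filter. Dendritic cell markers summed to 8.13 to 10.7 and 23.4 to 30.2 CPM, with Zbtb46 higher and Itgae not called, and Clec9a, Cd209a and Ccr7 at 0 in all libraries. Red blood cell markers summed to 0 to 57.5 and 53.8 to 437 CPM, and none of the 5 tested was called. Endothelial markers summed to 18.3 to 21.4 and 2.89 to 9.87 CPM, with the 1 tested, Pecam1, lower. Monocyte markers summed to 0.414 to 1.49 and 1.84 to 45.9 CPM, with the 1 tested, Fn1, higher. Pecam1 passed the expression filter through WT and Fn1 through IRF8KO, where Fn1 had 3.10 ± 1.38 CPM against 0.070 ± 0.069 in WT (SD, n = 3). Their directions were thus largely set by that filter. The part of these differences in the results below was not tested, except where a value without a library is given.

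Of the 10 transcripts, 1 rose (Cst7) and 2 fell (Ctsh and Ctsc) in IRF8KO. A gene was called when its p from the quasi-likelihood F test of edgeR, adjusted over all genes by the Benjamini-Hochberg method (BH), was under 0.05; 19.1% of all tested genes were called, 9.64% as higher and 9.46% as lower. Higher genes made up 50.5% of calls, but 25.4% under scaling by library size alone. The median log2 fold change of the 10 transcripts was −0.05, beside −0.11 for all tested genes. The values of the groups did not overlap for 4 of the 10, Ctsh, Ctss and Ctsc as lower and Cst7 as higher, where 37.9% of all tested genes did not overlap (20.0% as higher and 17.9% as lower). The 3 called of 10 are thus set against 19.1% of all genes. The 10 transcripts spanned from a 13.8-fold fall to a 44.9-fold rise. These are changes in bulk RNA, where fewer cells of a type and less RNA per cell cannot be told apart.

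**Figure D1:**
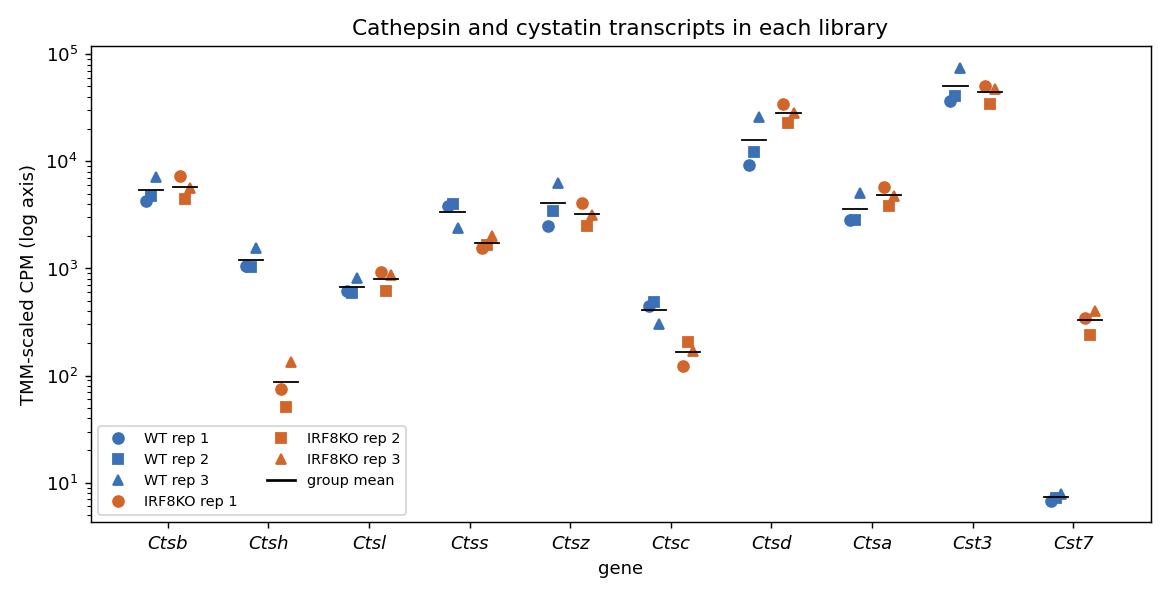
TMM-scaled CPM (log axis) of each cathepsin and cystatin transcript in the 6 libraries, with replicates as symbols and group means as lines. Cst7 lies between 6.81 and 7.86 CPM in WT and between 239 and 401 CPM in IRF8KO, while Ctsh goes the other way and Cst3 stays the highest of the 10 in both groups.

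Promoter sequences, from 250 bases before to 50 bases after a start site, were found for 8 of the 10 genes in RefSeq on GRCm38.p6, with 2 windows for Ctsa. They were searched on both strands for CACGTG (E-box), TCACGTGA (the core of the motif of lysosomal genes, which contains the E-box), the core of the interferon-stimulated response element (bound by factors of the IRF family), the PU.1-IRF composite element, and GAGGAAGT, the site of PU.1, a factor of macrophages. The search also took in TGANTCA, the site of the AP-1 family that early response genes encode, and the TATA box, spelled TATAAA. The windows below are those of the called genes with a sequence, Cst7 and Ctsc, of Ctss, which holds the interferon core, and of Ctsd and Ctsa, which hold the lysosomal core; capitals mark the matches, and each runs 5′ to 3′ on the gene's strand.
Cst7, chr2:150570165-150570464, plus strand: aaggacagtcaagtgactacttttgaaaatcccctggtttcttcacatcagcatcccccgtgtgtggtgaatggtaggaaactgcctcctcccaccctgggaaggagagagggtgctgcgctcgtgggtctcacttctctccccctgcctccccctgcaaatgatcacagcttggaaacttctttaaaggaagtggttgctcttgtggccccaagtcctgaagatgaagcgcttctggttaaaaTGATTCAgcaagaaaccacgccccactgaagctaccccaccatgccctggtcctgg
Ctsc, chr7:88277835-88278134, plus strand: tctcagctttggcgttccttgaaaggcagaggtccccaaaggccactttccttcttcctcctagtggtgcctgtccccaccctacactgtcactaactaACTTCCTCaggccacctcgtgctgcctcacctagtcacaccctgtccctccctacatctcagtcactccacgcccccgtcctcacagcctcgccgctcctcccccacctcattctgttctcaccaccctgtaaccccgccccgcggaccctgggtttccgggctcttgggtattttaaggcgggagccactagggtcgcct
Ctss, chr3:95526536-95526835, plus strand: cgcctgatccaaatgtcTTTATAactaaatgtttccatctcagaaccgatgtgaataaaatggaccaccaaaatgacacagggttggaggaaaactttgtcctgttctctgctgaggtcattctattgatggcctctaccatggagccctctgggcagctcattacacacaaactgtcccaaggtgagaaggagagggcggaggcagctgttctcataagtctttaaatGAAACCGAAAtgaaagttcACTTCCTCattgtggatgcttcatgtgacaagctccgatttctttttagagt
Ctsd, chr7:142387778-142388077, minus strand: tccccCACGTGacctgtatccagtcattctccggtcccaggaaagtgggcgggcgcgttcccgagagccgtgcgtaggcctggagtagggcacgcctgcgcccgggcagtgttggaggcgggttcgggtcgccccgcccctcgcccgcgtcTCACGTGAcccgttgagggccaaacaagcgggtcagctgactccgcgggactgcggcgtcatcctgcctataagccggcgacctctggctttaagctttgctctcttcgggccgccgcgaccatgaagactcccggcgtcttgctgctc
Ctsa, chr2:164833523-164833822, plus strand: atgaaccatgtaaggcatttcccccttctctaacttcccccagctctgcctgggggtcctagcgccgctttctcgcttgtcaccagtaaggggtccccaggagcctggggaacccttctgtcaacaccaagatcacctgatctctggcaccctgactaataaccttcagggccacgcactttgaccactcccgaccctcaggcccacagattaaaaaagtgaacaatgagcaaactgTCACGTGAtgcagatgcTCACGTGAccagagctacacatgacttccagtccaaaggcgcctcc

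In the Ctss window the match to the interferon core, GAAACCGAAA, starts at position −21 from the start site and is followed by a PU.1 match on the other strand at position −2; a reversed TATA box lies at −233. Of 32851 promoters of this length, 3.44% held the interferon core and 3.2% GAGGAAGT, and none of the 9 windows of these genes held the composite, found in 2.72% of all. The TATA box was in 13.6% of all. Ctsc has a PU.1 match on the other strand at −151, and Cst7 an AP-1 match at −6, a motif found in 7.81% of all promoters. TCACGTGA was in 0.974% of all promoters and in 2 of the 9 windows, those of Ctsd, at −99, and Ctsa, at −13 and 5. CACGTG was in 3 of the 9 and in 7.15% of all, the third being that of Ctsl. The windows of Ctsz and Cst3 and the first window of Ctsa held no match. Such matches are letters in a window and no measure of binding.

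Among the inhibitors, Cst7 (ENSMUSG00000068129, chromosome 2, 150570415 to 150578944, plus strand) had 35, 102 and 57 counts in WT replicates 1, 2 and 3 and 2156, 2664 and 3699 in IRF8KO replicates 1, 2 and 3. Scaled, these were 6.81, 7.22 and 7.86 CPM against 346, 239 and 401 CPM. The WT libraries lay within a narrow band, and the lowest IRF8KO library was far above it. The log2 fold change was 5.49 (SE 0.35; edgeR, BH-adjusted p = 2.1e-06), and 1.43% of all tested genes had a larger change in either direction. IRF8KO replicate 2, the library with neutrophil transcripts, had the lowest Cst7 level of its group, and without it the log2 fold change was 5.68. By level Cst7 ranked between 6072 and 7325 among all genes in the WT libraries and between 307 and 444 in the IRF8KO libraries. The macrophage markers named above rose in the same libraries, and their part in the Cst7 level was not tested.

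Cst3 (ENSMUSG00000027447, chromosome 2, 148871722 to 148875692, minus strand) was the most abundant transcript of all genes in each WT library and the second in each IRF8KO library. It had 36914, 41165 and 75064 CPM in WT and 50986, 34453 and 47400 CPM in IRF8KO. The groups overlapped, since WT replicate 3 was above all other libraries and the remaining WT libraries lay among the IRF8KO ones. Its difference of −0.21 (SE 0.46) on the log2 scale did not pass (edgeR, BH-adjusted p = 0.792). As a share of all gene counts, Cst3 took 5.19%, 5.35% and 6.88% in WT and 3.53%, 3.53% and 3.94% in IRF8KO, with exact 95% binomial intervals such as 5.16% to 5.21% in WT replicate 1 and 3.52% to 3.54% in IRF8KO replicate 1; these intervals cover counting error only. On that scale the groups did not overlap. Apoe, the transcript of a lipid carrier, rose from 2104 ± 1255 to 357730 ± 120300 CPM (SD, n = 3) and took first place from Cst3 in the IRF8KO libraries; scaled by library size without Apoe, the log2 fold change of Cst3 was −0.17. Under scaling by library size alone the log2 fold change of Cst3 was −0.66 with an adjusted p of 0.023 (edgeR, range over the 17 alternatives 0.021 to 0.967), where the median of all genes moved to −0.61; relative to that median Cst3 was at −0.05, and at −0.10 with TMM.

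The balance of the cystatins within a library does not depend on scaling. Cst7 had 0.184, 0.175 and 0.105 counts per 1000 counts of Cst3 in WT and 6.79, 6.94 and 8.46 in IRF8KO, so it stayed a minor cystatin in every library. Set against the summed 8 cathepsins, each divided by its exonic length, Cst3 stood at 2.86, 2.63 and 2.99 in WT and 1.89, 1.91 and 2.10 in IRF8KO. The ratio was lower in each IRF8KO library than in any WT library. That sum includes Ctsd and Ctsa, which are not papain-like cathepsins. Ctsd made up 38.8% to 55.3% of it in WT and 67.5% to 69.1% in IRF8KO. A ratio to the papain-like cathepsins alone was not calculated, so these values do not compare cystatins with the proteases they block. Cst7 was 0.068%, 0.059% and 0.040% of the summed cathepsins in WT and 1.64%, 1.70% and 2.28% in IRF8KO. These ratios are given as descriptions and were not tested; the smallest p that an exact two-sided permutation test of 3 libraries against 3 allows is 0.1.

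Cst3 and Cst7 both lie on chromosome 2, with the tested gene Zfp120 between them, 1239 kb from Cst3. Of the 21 other cystatins and stefins listed, 18 were matched to the annotation and 16 of these were at 0 counts throughout, a result that still permits 3 counts per library. Cst6 had 13 counts in all. Cstb, which encodes the cytosolic inhibitor stefin B, had 72.4, 61.7 and 79.5 CPM in WT and 129, 94.5 and 151 CPM in IRF8KO. It was called in 6 of the 17 alternatives, DESeq2 among them (adjusted p = 0.037; range 0.012 to 0.336). Its groups did not overlap, but its log2 fold change of 0.81 (SE 0.28) was not called (edgeR, BH-adjusted p = 0.065). The nearest tested gene after Cst7, 4.14 kb beyond its end, is Apmap, which rose from 50.3 ± 17.5 to 113 ± 13.4 CPM (SD, n = 3), a log2 fold change of 1.17 (edgeR, BH-adjusted p = 0.020). The nearest tested gene on the other side, Zfp120, is 434 kb away and did not pass (WT 8.12 ± 4.52 CPM, IRF8KO 2.54 ± 2.88 CPM; adjusted p = 0.179 in the same edgeR test), and Napb, 139 kb from Cst3, was not called either (2.20 ± 1.34 and 1.70 ± 0.478 CPM, adjusted p = 0.783).

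Other listed protease inhibitors were scarce in WT, and not all of them are known to block the cathepsins described here. Of 7 such genes listed, 4 were tested and 2 rose, where 9.64% of all tested genes were called as higher. Ctla2b, which resembles the propeptide of cathepsin L, had 3.50, 7.58 and 3.86 CPM in WT and 19.4, 27.4 and 37.7 CPM in IRF8KO. Serpinb6a, an intracellular serpin, had 5.64, 4.32 and 10.3 CPM in WT and 27.6, 22.7 and 35.6 CPM in IRF8KO; 29.3% of its exonic length is shared with other genes. Both sets of values were without overlap, with log2 fold changes of 2.47 and 2.09 (edgeR, BH-adjusted p of 0.0028 and 0.0055). Ctla2a, a close copy of Ctla2b, was not called at 0.268 ± 0.232 and 2.37 ± 0.299 CPM (adjusted p = 0.057 in the same edgeR test) but was in 4 of 14 alternatives, and reads from either copy could be misassigned. Serpinb9, with 5.01 ± 1.09 CPM in WT against 3.04 ± 2.06 in IRF8KO, did not pass (adjusted p = 0.501 in edgeR).

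Among the cysteine cathepsins, Ctsh fell most. Cathepsin H is an aminopeptidase of the lysosome. Ctsh (ENSMUSG00000032359, chromosome 9, 90054152 to 90076089, plus strand) had 5394, 14530 and 11153 counts in WT and 466, 571 and 1246 in IRF8KO, or 1049, 1029 and 1537 CPM against 74.8, 51.2 and 135 CPM. Every IRF8KO library was far below the lowest WT library, with IRF8KO replicate 3 the highest of its group. The log2 fold change was −3.79 (SE 0.42; edgeR, BH-adjusted p = 1.2e-04), and it was called in each of the 17 alternatives, at values between −4.28 and −3.51. Within each library, Ctsh counts were 24.6%, 21.6% and 21.6% of Ctsb counts in WT and 1.03%, 1.15% and 2.42% in IRF8KO. Of all tested genes, 3.28% had a larger change than Ctsh.

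Ctsc, which encodes the dipeptidyl peptidase that activates the serine proteases of granules, fell too. Ctsc (ENSMUSG00000030560, chromosome 7, 88278085 to 88310888, plus strand) had 444, 484 and 305 CPM in WT and 122, 205 and 168 CPM in IRF8KO. The groups did not overlap, and WT replicate 3 and IRF8KO replicate 2 came nearest to each other. The log2 fold change was −1.32 (SE 0.31; edgeR, BH-adjusted p = 0.013). The call was lost without WT replicate 2, IRF8KO replicate 1 or IRF8KO replicate 3, with adjusted p of 0.060, 0.084 and 0.090 (edgeR; range over the 17 alternatives 6.5e-04 to 0.090), and an offset for GC content moved the log2 fold change to −0.76 while the call held. IRF8KO replicate 2, the library with neutrophil transcripts, had the highest Ctsc level of its group, and without it the log2 fold change was −1.49. Cst7, whose product inhibits cathepsin C, had 1.53, 1.49 and 2.58 counts per 100 counts of Ctsc in WT and 284, 117 and 238 in IRF8KO, so the order of these transcripts turned over between the labels.

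Ctss encodes cathepsin S, an elastin-cleaving protease that also trims the invariant chain of MHC class II and keeps its activity outside the lysosome. Ctss (ENSMUSG00000038642, chromosome 3, 95526786 to 95556403, plus strand) had 3793, 3999 and 2373 CPM in WT and 1543, 1670 and 2014 CPM in IRF8KO. WT replicate 3 was the lowest of its group and yet above every IRF8KO library. Its difference of −0.96 (SE 0.34) on the log2 scale missed the threshold (edgeR, BH-adjusted p = 0.070). It was called in 7 of the 17 alternatives, with adjusted p between 0.0021 without WT replicate 3 and 0.240 without WT replicate 2 (edgeR). It kept its sign in all 17, between −1.51 and −0.70. Cd74, the invariant chain, was not called, at 152 ± 73.2 and 167 ± 41.9 CPM (SD, n = 3).

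The other cysteine cathepsins did not pass the test. Ctsb (ENSMUSG00000021939, chromosome 14, 63122462 to 63145923, plus strand), for the abundant lysosomal cathepsin B, had 4260, 4766 and 7118 CPM in WT and 7264, 4453 and 5581 CPM in IRF8KO. Ctsl (ENSMUSG00000021477, chromosome 13, 64359337 to 64370890, minus strand), for the endopeptidase cathepsin L, had 616, 585 and 812 CPM against 925, 613 and 868 CPM. The groups of both genes lay over each other. Ctsz (ENSMUSG00000016256, chromosome 2, 174427493 to 174439039, minus strand), for a carboxypeptidase also called cathepsin X, had 2489, 3470 and 6270 CPM in WT and 4100, 2469 and 3155 CPM in IRF8KO, and its spread among WT libraries was wider than the gap between groups. On the log2 scale Ctsb differed by 0.10 (SE 0.37), Ctsl by 0.26 (SE 0.31) and Ctsz by −0.33 (SE 0.41); their BH-adjusted p from edgeR were 0.881, 0.599 and 0.610. Under scaling by library size alone Ctsb and Ctsl took the opposite sign, at −0.39 and −0.25, but all genes shifted: relative to the median of all genes Ctsb was at 0.22 there and 0.21 with TMM, and Ctsl at 0.36 and 0.37. Ctsz was called lower under that scaling, at −0.78 (adjusted p = 0.022 in edgeR), but relative to the median of all genes it was at −0.17 there and −0.22 with TMM. It was called in 2 of the 17 alternatives, the other being the GC offset described below. Without WT replicate 3 Ctsz took the opposite sign, at 0.15.

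The aspartic protease and the serine carboxypeptidase did not pass the test. Ctsd (ENSMUSG00000007891, chromosome 7, 142375911 to 142388038, minus strand), for cathepsin D, a main protein-degrading enzyme of the lysosome, had 9291, 12258 and 25748 CPM in WT and 34665, 22651 and 28365 CPM in IRF8KO. WT replicate 3 was the only WT library that overlapped the IRF8KO libraries. The log2 fold change was 0.86 (SE 0.47; edgeR, BH-adjusted p = 0.225); without WT replicate 3 it was 1.43, with an adjusted p of 0.0018 (edgeR; range over the 17 alternatives 0.0018 to 0.541). Ctsa (ENSMUSG00000017760, chromosome 2, 164832873 to 164841032, plus strand), for cathepsin A, the protein that protects the sialidase Neu1 and the galactosidase Glb1 in a complex, had 2822, 2858 and 5046 CPM in WT and 5811, 3861 and 4766 CPM in IRF8KO. Here too WT replicate 3 overlapped the IRF8KO libraries and the other WT libraries did not. Its log2 fold change was 0.43 (SE 0.37, adjusted p = 0.454), and 0.79 without WT replicate 3 (adjusted p = 0.014; range 0.014 to 0.837, all in edgeR), but −0.044 under scaling by library size alone; relative to the median of all genes it was 0.57 there and 0.54 with TMM. The exons of Ctsd share 34.4% of their length with Gm49369, which had 0 counts in all libraries, those of Ctsa 17.4% with Neurl2 and Pltp, and those of Ctsb 12.8% with Fdft1. A read that falls on both genes counts for neither, and Pltp itself rose from 8.12 ± 4.62 to 168 ± 53.3 CPM (SD, n = 3).

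**Figure D2:**
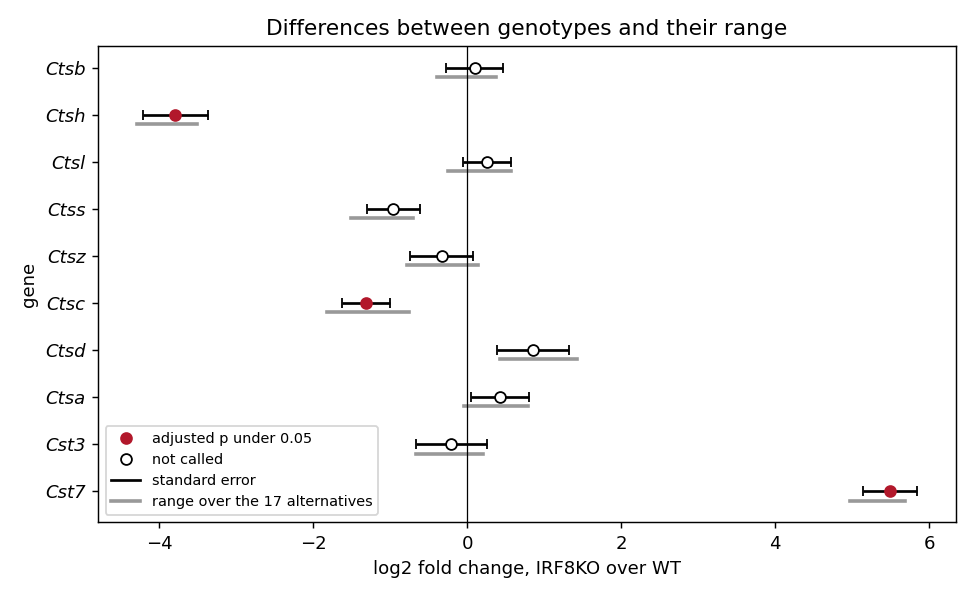
Log2 fold change of IRF8KO over WT for each transcript (points, with standard errors as black bars) and its range over the 17 alternative fits (grey bars); filled points were called. Cst7 at 5.49 and Ctsh at −3.79 keep their sign and call in all fits, while the grey bars of Ctsb, Ctsl, Ctsz, Ctsa and Cst3 cross 0.

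WT replicate 3 departed from WT replicates 1 and 2 by amounts that went with GC content, and the part of GC content in the results was not tested beyond the offset below. Relative to their mean on the log2 scale, it was higher by 1.27 for Ctsd, 1.09 for Ctsz, 0.95 for Cst3 and 0.83 for Ctsa, the genes with GC contents of 55.9%, 57.3%, 57.2% and 54.5%. It was −0.71 for Ctss and −0.61 for Ctsc, with GC contents of 46.0% and 41.1%. Ctsb, Ctsh, Ctsl and Cst7, between 44.3% and 50.1% GC, had differences of 0.66, 0.57, 0.44 and 0.16. Over the 10 genes Pearson's r was 0.84, a description of genes that share 1 library. With an offset that removes the relation to GC content in each library, 2 of the 10 were called as higher (Cst7 and Ctsd) and 5 as lower (Ctsh, Ctsc, Ctss, Ctsz and Cst3). Of all tested genes 26.7% were called in that fit, 11.7% as higher and 15.0% as lower, against 19.1% without the offset. The log2 fold changes of Ctsd, Ctsz and Cst3 were 0.64, −0.57 and −0.45 (edgeR, BH-adjusted p of 0.026, 0.030 and 0.021; ranges over the 17 alternatives 0.0018 to 0.541, 0.022 to 0.845 and 0.021 to 0.967).

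**Figure D3:**
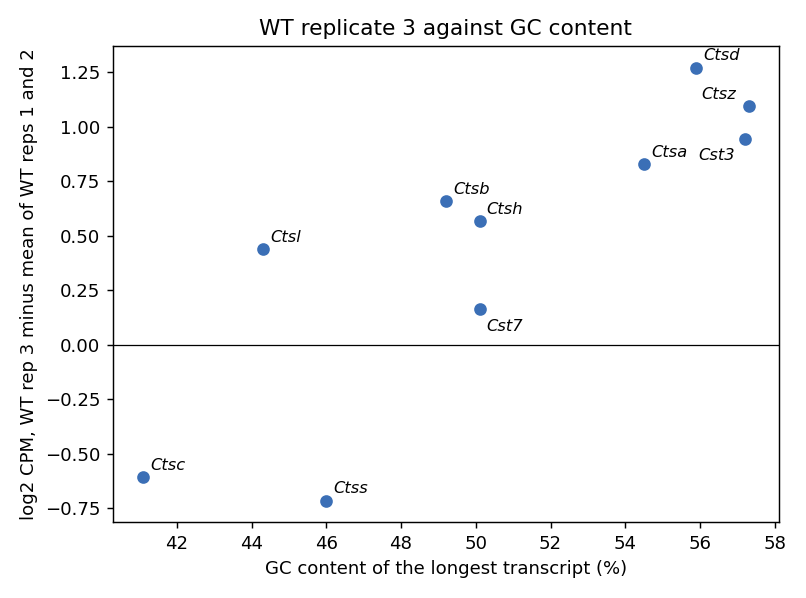
Difference in log2 CPM between WT replicate 3 and the mean of WT replicates 1 and 2 for the 10 transcripts against the GC content of the longest annotated transcript. The 4 genes above 54% GC, Ctsa, Ctsd, Cst3 and Ctsz, lie between 0.83 and 1.27, and Ctsc and Ctss lie below 0.

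Within the 8 cathepsins, transcripts of Ctsd made up a larger share in IRF8KO. Divided by exonic length, Ctsd was 38.8%, 42.2% and 55.3% of the family's counts in WT and 69.1%, 67.5% and 67.5% in IRF8KO. The IRF8KO libraries were almost alike, and each was above the highest WT library. Ctsz made up 19.5% on average in WT and 12.5% in IRF8KO, with no overlap, and Ctss 27.4%, 23.8% and 8.82% against 5.33%, 8.61% and 8.30%. For Ctss, WT replicate 3 lay close to the IRF8KO libraries. Ctsb went from 6.41% ± 0.491 to 5.31% ± 0.269, Ctsh from 1.96% ± 0.298 to 0.109% ± 0.052 and Ctsc from 0.563% ± 0.262 to 0.169% ± 0.075 (SD, n = 3). The shares of Ctsa, 5.39% ± 0.488 and 5.72% ± 0.060, and of Ctsl, 0.765% ± 0.154 and 0.693% ± 0.049, overlapped between groups. With principal transcript length the share of Ctsh was 4.76% and 0.269%, that of Ctsl 2.20% and 2.03% and that of Ctsc 1.15% and 0.351% in WT and IRF8KO. The shares depend on the division by length: without it Ctsb took 15.9% and 12.7%, Ctsa 10.5% and 10.7%, Ctsz 11.5% and 7.13%, Ctss 11.2% and 3.98%, Ctsh 3.62% and 0.193%, Ctsl 2.04% and 1.78% and Ctsc 1.35% and 0.389% in WT and IRF8KO, with the same 6 of the 8 not overlapping between groups. On TMM-scaled CPM only Ctsh, Ctss and Ctsc of the 8 did not overlap, where 37.9% of all tested genes did not. Shares of a sum are not independent of each other, so the count of 6 has no such background.

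**Figure D4:**
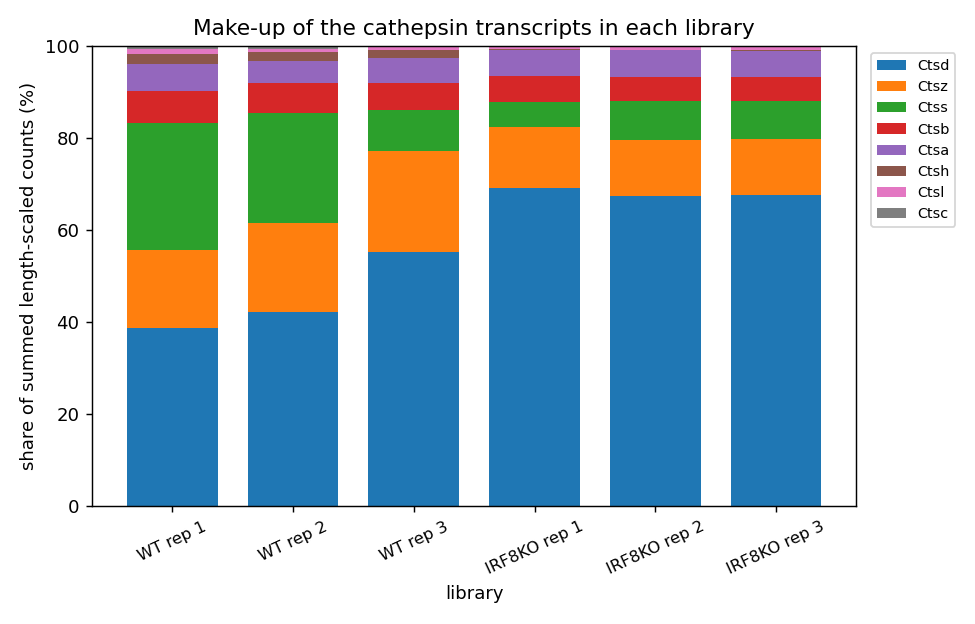
Share (%) of each of the 8 cathepsins in their summed counts per exonic length, 1 bar per library. The Ctsd segment covers 38.8% to 55.3% of the WT bars and 67.5% to 69.1% of the IRF8KO bars, and the Ctss segment is widest in WT replicates 1 and 2.

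**Figure D5:**
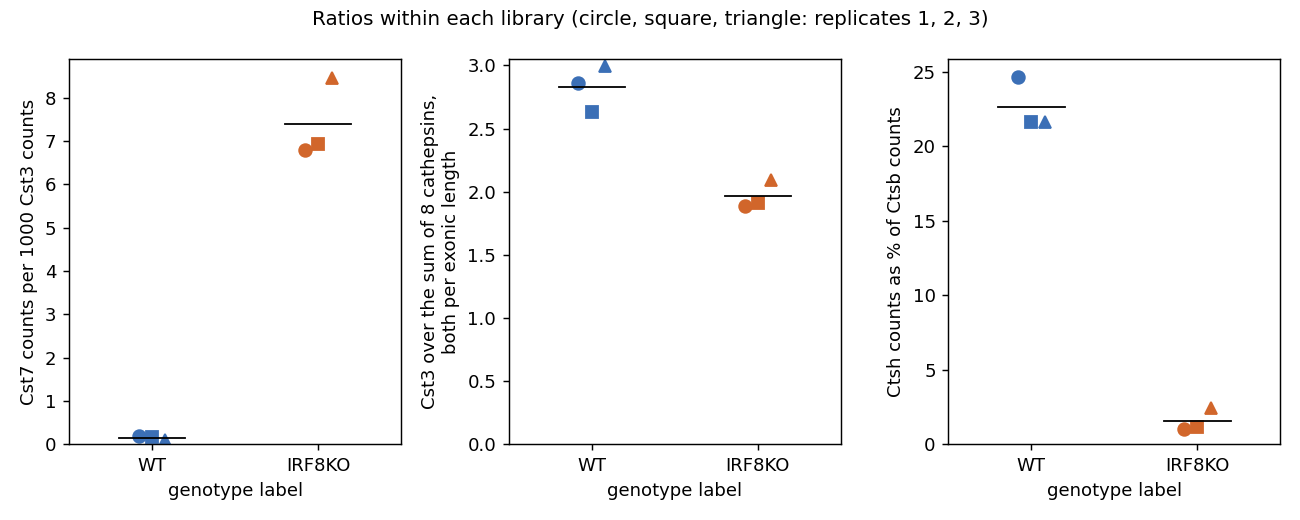
Ratios between transcripts within each library, free of library scaling: Cst7 counts per 1000 Cst3 counts, Cst3 over the summed 8 cathepsins per exonic length, and Ctsh counts as a percent of Ctsb counts, with lines at the group means. In each panel the 3 IRF8KO libraries lie apart from the 3 WT libraries. The summed cathepsins include Ctsd and Ctsa, which are not papain-like.

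Levels between genes were compared as CPM per kb of exonic length. In WT the order was Cst3, Ctsd, Ctsz, Ctss, Ctsb, Ctsa, Ctsh, Ctsl, Ctsc and Cst7, from 40322 ± 16514 CPM per kb for Cst3 and 6706 ± 3731 for Ctsd down to 70.8 ± 16.2 for Ctsc and 7.40 ± 0.536 for Cst7 (SD, n = 3). The library ranges of Ctsd and Ctsz, of Ctsz and Ctss, and of Ctsb and Ctsa overlapped. Within a library, however, Ctsd was above Ctsz and Ctsb above Ctsa in 3 of 3, whereas Ctsz was above Ctss in 1 of 3. In IRF8KO the order was Cst3, Ctsd, Ctsz, Ctss, Ctsa, Ctsb, Cst7, Ctsl, Ctsc and Ctsh, from 34976 ± 6870 and 12148 ± 2556 for Cst3 and Ctsd to 28.4 ± 7.17 for Ctsc and 19.4 ± 9.62 for Ctsh. There the ranges of Ctss and Ctsa, of Ctsa and Ctsb, and of Ctsc and Ctsh overlapped; within a library Ctsa was above Ctsb in 3 of 3, and Ctss above Ctsa and Ctsc above Ctsh in 2 of 3. Cst7 had moved from the last place to 333 ± 83.6 CPM per kb, above Ctsl at 124 ± 25.6. With the length of the shortest principal transcript in place of the exonic length, Ctsl had 407 ± 84.4 and came before Cst7, and Ctsa (1320 ± 268) came before Ctss (1286 ± 180), so these orders rest on the length used.

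Other cathepsins were few. Of 16 listed genes, 9, such as Ctsj and Cts6 of the placental cluster, were at 0 counts throughout, and 4 were tested, none of which was called (19.1% of all tested genes were). By edgeR's unadjusted test, 1 of the 4, Ctso, had a p under 0.05. DESeq2 called none of the 4 and limma-voom none, but over the 17 alternatives Ctsf was called lower in 2, library size alone (adjusted p = 0.0061) and the GC offset (0.0033), and Ctso in 1, without WT replicate 3 (0.032; all in edgeR). Ctsf, a lysosomal cysteine protease, had 817, 866 and 1902 CPM in WT and 835, 604 and 796 CPM in IRF8KO, with WT replicate 3 apart from the rest. Its log2 fold change was −0.68 (SE 0.38; edgeR, BH-adjusted p = 0.226). Ctso had 62.3 ± 24.2 and 34.5 ± 13.9 CPM (SD, n = 3; adjusted p = 0.137 in the same test). Ctse and Ctsw were near the limit of detection, at no more than 2.48 and 4.67 CPM in any library, and Ctsk, the cathepsin of osteoclasts, had 6 counts over all 6 libraries.

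The list named for delivery and activation of cathepsins gave few calls, and some of its genes, such as Ncstn and Sppl2a, do neither. Of 16 listed, 15 were tested, 1 fell and 14 were not called. Of all tested genes, 9.46% were called as lower and 19.1% in either direction. The list's median log2 fold change was −0.24, beside −0.11 for all tested genes. Atp6ap2, an accessory subunit of the proton pump that acidifies the lysosome, had 87.9, 88.4 and 50.7 CPM in WT and 15.7, 40.5 and 27.5 CPM in IRF8KO. Its log2 fold change was −1.43 (SE 0.37; edgeR, BH-adjusted p = 0.020), and the call was lost without WT replicate 1 or 2 or IRF8KO replicate 1 or 3 (adjusted p of 0.054, 0.069, 0.095 and 0.108 in edgeR) and with library size without Apoe (0.073). The GC offset moved the log2 fold change to −0.86 while the call held. The sorting receptors Sort1 and M6pr had 149 ± 18.4 and 125 ± 29.0 CPM in WT and 84.1 ± 15.7 and 72.7 ± 11.9 CPM in IRF8KO, and neither was called (adjusted p of 0.053 and 0.080 in the same edgeR test), though Sort1 was in 8 and M6pr in 2 of the 17 alternatives. Ncstn, Atp6ap1 and Gnptab, the 3 with the smallest p among those with a positive log2 fold change, were not called, at log2 fold changes of 0.46, 0.39 and 0.56 (adjusted p of 0.348, 0.506 and 0.545 in that edgeR test); of the 17 alternatives 2 called Ncstn, 1 called Atp6ap1 and 0 called Gnptab.

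Among 14 partners and substrates, 1 fell and 13 were not called, where 9.46% of all tested genes were called as lower and 19.1% in either direction. The list's median log2 fold change was 0.13. Psap, the precursor of the saposins that cathepsin D cleaves, had 4853, 5508 and 10030 CPM in WT and 3303, 2165 and 2473 CPM in IRF8KO. The groups did not overlap, and its log2 fold change was −1.36 (SE 0.40; edgeR, BH-adjusted p = 0.033). With the replicate number as a block the adjusted p was 0.061, and the call was also lost without WT replicate 2 or IRF8KO replicate 1, 2 or 3 (adjusted p of 0.061, 0.076, 0.119 and 0.177 in edgeR). Glb1 and Neu1, the partners of cathepsin A, had 138 ± 42.1 and 125 ± 25.2 CPM in WT, against 238 ± 34.5 and 190 ± 26.1 in IRF8KO (SD, n = 3). Neither was called, with log2 fold changes of 0.79 and 0.60 (adjusted p of 0.085 and 0.153 in the same edgeR test), though Glb1 was in 5 and Neu1 in 2 of the 17 alternatives. Lamp2 and Dpp7 were not called either, at log2 fold changes of −1.18 and −0.19 (adjusted p of 0.058 and 0.685 in that edgeR test). Lamp2 was called in 7 of the 17 alternatives, among them the replicate block (adjusted p = 0.027), DESeq2 (0.029) and no expression filter (0.0051), with adjusted p up to 0.236 over all 17; the GC offset moved its log2 fold change to −0.44 without a call (0.084).

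Patterns over the 6 libraries that were most like those of the cystatins were found by Pearson's r of log2 CPM (with 0.5 CPM added) among 6052 tested genes whose mean reached 10 CPM. For Cst7 these were Unc119, Mcm3ap and Ms4a6c, each with an r of 0.999, and 421 genes had an r above 0.95. The measure ignores size: Unc119 went from 0.116 ± 0.143 to 35.2 ± 8.93 CPM and Ms4a6c from 4.36 ± 0.070 to 75.9 ± 19.4 CPM, but Mcm3ap only from 18.9 ± 0.080 to 22.1 ± 0.323 CPM, which was not called. For Cst3 they were Pkm, Tap1 and Slc43a2, with r of 0.995, 0.995 and 0.993. These 3 were not called, and like Cst3 were spread more widely among the WT libraries than among the IRF8KO libraries.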

How the data were processed

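Bulk RNA of sorted microglia was sequenced in 3 WT and 3 IRF8KO libraries after cDNA synthesis with SMART-Seq v4 and tagging with Nextera XT, per the labels' protocols; such libraries carry neither strand nor molecular identifiers. The deposited files hold raw counts per gene, 1 file per library, in STAR's layout; the submitters' processing notes name STAR 2.5.2b, Picard 2.17.11, Subread, featureCounts and the mm10 build, and the annotation release is not given in the sources used here. The 4 summary lines were left out; reads outside genes were 2.44% to 7.70% and reads on several genes 8.20% to 10.8% of the uniquely mapped reads. Of 49585 genes, 49326 were matched to GENCODE M21 (GRCm38), which gave symbols, positions, lengths and GC content.

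The count that ignores strand was tested with edgeR 4.0.16 in R 4.3.3 (default expression filter with minimum count 10, TMM, quasi-likelihood F test, no term but genotype, Benjamini-Hochberg adjustment over 11041 genes, called under 0.05), after the code was tested on simulated data. SE came from the F statistic. Alternatives changed the scaling, filter, count column, GC offset, test (DESeq2 1.42.0, limma 3.58.1 voom), replicate block and libraries, 17 in all. Members and lists were chosen with earlier results of these data known. Named were all members; from each list every tested gene, or the 3 smallest p in each direction where over 8 were tested; the 3 genes most like Cst3 and Cst7; and their nearest tested neighbours; 1 gene of the partner list that this rule names is not reported here.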

Additional observations from a re-analysis of the deposited data

How the results depend on the processing

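Cst7 and Ctsh kept direction and call in all 17 alternatives. From 1 member called as higher, the count moved to 2 with library size without Apoe, 2 with the GC content offset and between 1 and 3 when 1 library was left out, 3 being without WT replicate 3. From 2 called as lower, it moved to 5 with library size alone, 5 with the GC offset and between 1 and 3 when 1 library was left out. Genes called overall numbered 2109 and between 910 (without IRF8KO replicate 3) and 4003 (without WT replicate 3) when 1 library was left out; library size alone gave 25.4% of calls as higher, against 50.5%. List genes called numbered 4, and 11 with library size alone, 9 with library size without Apoe, 8 with at least 10 counts in every library, 8 with DESeq2, 7 with the first strand column, 11 with the GC offset, and between 2 and 17 when 1 library was left out. The share of Ctsd in IRF8KO was 63.2% without division by length and 67.0% with principal transcript length, a choice made after the lengths were seen.

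Signs were reversed with library size alone for Ctsb (−0.39), Ctsl (−0.25), Ctsa (−0.044), Ncstn (−0.012) and Atp6ap1 (−0.076). That scaling moves the median of all genes from −0.11 to −0.61, and relative to the median these 5 stayed positive, at 0.22, 0.36, 0.57, 0.60 and 0.54. When 1 library was left out, signs turned for Ctsb without WT replicate 1 (−0.056) or IRF8KO replicate 1 (range −0.092 to 0.38), Ctsz (−0.60 to 0.15), Cst3 (−0.41 to 0.21) and Dpp7 (−0.38 to 0.13) without WT replicate 3, Ctse (−0.60 to 0.057) without WT replicate 3 or IRF8KO replicate 3, and Gnptab (−0.15 to 0.97) without IRF8KO replicate 2. None of these was called with its sign turned, and the cause of the turns without a library was not tested. For named genes of the lists, 289 further results kept direction and call, 42 gained a call, 10 lost one and 6 are among the turned signs above.

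Deviations from the group means of same-numbered libraries correlated at −0.26, 0.33 and 0.11. With 3 libraries per group these deviations are tied to each other, so such values cannot decide whether replicate numbers pair the samples. With the replicate block 2353 genes were called, with 1 member higher and 2 lower, as without it; Ctsh was at −3.88, Ctsc at −1.32 and Cst7 at 5.45. Among the named list genes Psap lost and Lamp2 gained a call under it. Depth limits Cst7 in WT, where 35 to 102 counts lie behind a value, and p-values measure the spread between 3 libraries of each label, which may be technical in part since the labels do not tie a library to 1 animal.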
